A study of Mus musculus with 138 samples.

Results

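The proteasome genes of the mouse were followed across 5 groups of 2-cell embryos. They were found by name in both count tables: a symbol that starts with Psm, then 1 letter from a to g, then a digit, with names of pseudogenes left out. The rule gave 49 genes of the 25900 in the tables. One of them, Psmc3ip, codes for a factor of meiotic recombination and not for a proteasome protein. It is kept in the counts because the rule names it, and counts without it are given where they lead. The other 48 are 14 genes of the constitutive 20S core, 17 of the 19S particle, 3 immunoproteasome genes, 2 tissue-restricted core genes, 4 activators, 1 inhibitor, and 3 and 4 assembly chaperones of the 19S and 20S particles.

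The proteasome is the protease complex that degrades proteins tagged with ubiquitin. Its 20S core is a barrel of outer alpha rings and inner beta rings, and 3 of the beta subunits carry the cutting sites. The 19S particle caps the barrel, binds and unfolds tagged proteins with its ring of ATPases, and removes the ubiquitin. Around the first cleavages, maternal proteins and RNAs are cleared while the embryo's own genome is switched on, and proteasome activity is known to be needed for that change.

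The series asks what the loss of SMARCA5, an ATPase that slides nucleosomes, does to RNA at this stage. Polyadenylated RNA was read in 1 library per plate well. In the deletion experiment, embryos labelled Smarca5 +/- (mat KO), from mothers lacking Smarca5 in the egg and wild-type males, stand beside embryos labelled Smarca5 +/+. Both groups' titles speak of matKO females, so the mothers cannot be told apart from the labels, and maternal loss cannot be told apart from the embryo's own genotype. In the TrimAway experiment, wild-type zygotes received an antibody to SMARCA5 or control IgG and were taken at least 24 h after injection. Uninjected embryos were kept beside them. TrimAway uses the ubiquitin ligase TRIM21 to send an antibody's target to the proteasome, so the genes studied here code for the machine the method depends on. Libraries with at least 100000 counts were used: 22 wild-type, 28 maternal deletion, 31 anti-SMARCA5, 20 IgG and 15 uninjected. Per the series' design text, a replicate is a pool of embryos from several matings or a pool of injected embryos. The text does not say whether control embryos of a number came from the same pool. Replicate numbers are called collections 1 and 2 in the deletion experiment, where each collection is also its own sequencing lane, and pools 1, 2 and 3 in the TrimAway experiment, which is 1 lane. The p-values measure the spread between libraries, which share mothers or pools to an extent the labels do not give.

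Kept libraries held 109007 to 12004992 counts. Median depth was 545265 in wild type and 1618486 after deletion, and between 1460667 and 1708008 in the TrimAway groups. Smarca5, given here like all levels as CPM (counts scaled to library size, adjusted by edgeR's trimmed mean method), had a median of 359.9 in wild type and 94.4 after deletion (log2 fold change -2.06 ± 0.31 SE, edgeR quasi-likelihood adjusted p = 2.63e-07). In collection 2, 3 libraries stood against their labels. The deletion library in well A04 had Smarca5 at 304.7 CPM, and the wild-type libraries in wells G05 and H05 had 153.1 and 175.6 CPM with the oocyte gene Gdf9 at 625.8 and 294.1 CPM. Trim21 RNA was at 0 in 1 of 31 anti-SMARCA5 libraries and in 12 of 20 IgG libraries, all of pool 1 among them. The 3 wells without an embryo held 453 to 1875 counts in all, and proteasome genes took 0, 0 and 19 of them. Of the 49 genes, 29 to 45 were detected per wild-type library and 31 to 46 per deletion library, against 43 to 48 in uninjected embryos.

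Stretches of 100 bases before the start of 3 of the genes are shown because these genes moved in different directions after the deletion: Psmb5 had the largest fall of the proteasome genes that passed the count filter, Psmd6 also fell and Psme4 rose. The sequences are from RefSeq, build GRCm38.p6, 5′ to 3′ on each gene's strand, and hold at most 10 bases of any annotated exon. Capitals mark letters matched by a searched motif.
Psmb5, chr14:54618013-54618112, minus strand: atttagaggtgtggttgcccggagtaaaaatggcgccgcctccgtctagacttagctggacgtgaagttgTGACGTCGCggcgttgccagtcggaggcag
Psmd6, chr14:14120975-14121074, minus strand: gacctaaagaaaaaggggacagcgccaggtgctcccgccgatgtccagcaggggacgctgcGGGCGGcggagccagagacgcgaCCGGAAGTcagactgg
Psme4, chr11:30771636-30771735, plus strand: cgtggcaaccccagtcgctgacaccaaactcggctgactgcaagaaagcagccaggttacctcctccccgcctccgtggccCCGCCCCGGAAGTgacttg

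The capitals of Psmb5 spell a match to TGACNNNGC, the core of the antioxidant response element bound by the NFE2L1 and NFE2L2 factors, which are known activators of proteasome genes. Those of Psmd6 and Psme4 spell GGGCGG, the GC box, and CCGGAAGT, a form of the motif of ETS factors. In Psme4 the GC box is on the other strand and shares 1 base with the ETS motif. Motifs were searched on both strands from 250 bases before to 50 after the start in the 41 members with a RefSeq entry and in all 27025 genes of that table. CCGGAAGT was in 9 of 41 members (22.0%), against 4.31% of all genes and 10.2% of the 6134 genes that had an entry and were tested in the deletion comparison. It was in 6 of the 18 members that fell after the deletion and in 2 of the 15 that were tested and did not, while 14.2% of all genes that fell had it. TGACNNNGC, the form in Psmb5, was in 14.6% of members, 14% of all genes and 17.4% of tested genes, and in 2 of the 18 members that fell against 4 of the 15 that did not. TGACNNNGC or TGAGNNNGC was in 41.5% of members, 30.8% of all genes and 36.2% of tested genes. For CCAAT these shares were 36.6%, 41.1% and 45.0%, and for GGGCGG 56.1%, 38.2% and 70.1%. GCGCATGC, the motif of nuclear respiratory factor 1, was in 7.32%, 3.05% and 7.01%. The matches are letters in a window and no more.

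In embryos with the maternal deletion, 10 of the 14 core genes and 10 of the 17 genes of the 19S particle fell. Of 40 proteasome genes with enough counts to test, 21 fell and 2 rose (edgeR quasi-likelihood, Benjamini-Hochberg adjusted p over 8518 genes). Among all tested genes 26.4% fell and 30.3% rose. The median log2 fold change was -1.15 over the 40 genes and 0.18 over all genes. Without Psmc3ip, 20 of 39 fell and the median was -1.01. The 9 genes not tested were Psma8, Psmb8, Psmb9, Psmb10, Psmb11, Psme1, Psme2, Psmg3 and Psmg4, whose medians were at most 7.91 CPM in both groups. With no filter on low counts all 49 could be tested and 24 fell, where 17.8% of all genes did. In that fit 4 rose, where 31.8% of all genes did, and Psmb8, Psmb9 and Psmb11 were among the 4.

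**Figure D1:**
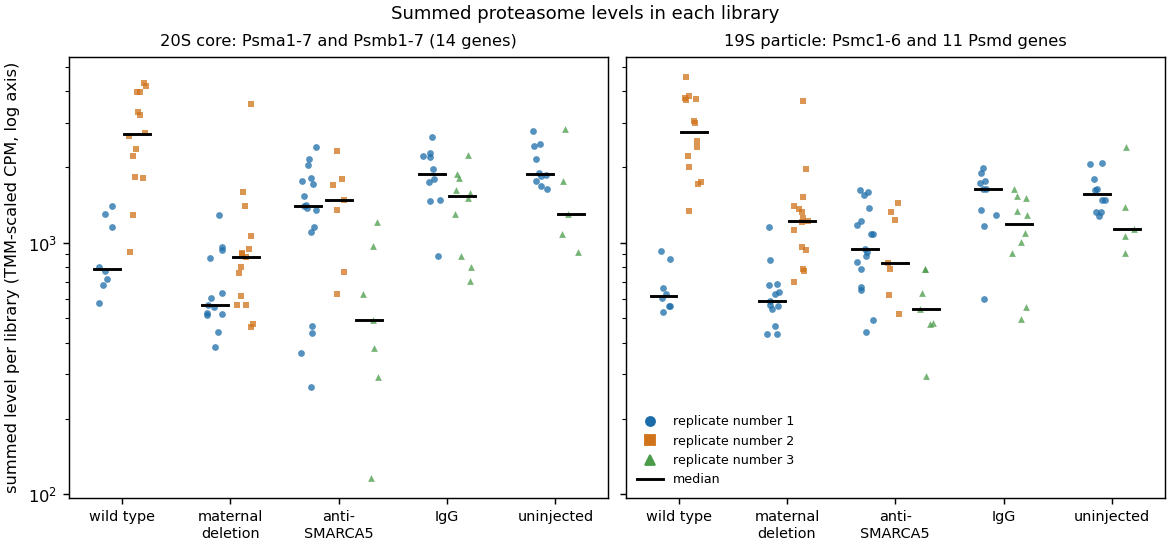
Summed level of the 14 constitutive 20S core genes (left) and of 17 genes of the 19S particle (right) in each library, in TMM-scaled CPM on a log axis, by group; points are libraries, coloured by replicate number, and bars are medians. Wild-type collection 2 sits highest in both panels (medians 2696 and 2759) and wild-type collection 1 (786.2 and 613.5) lies among the deletion libraries.

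The groups did not separate in the same way in both collections. The summed 20S core level ran from 577.4 over a median of 786.2 to 1405 CPM in the 8 wild-type libraries of collection 1, and from 384.8 over 563.5 to 1287 CPM in the 13 deletion libraries beside them. In collection 2 it ran from 921.6 over 2696 to 4307 CPM in 14 wild-type libraries and from 463.7 over 880.3 to 3566 CPM in 15 deletion libraries. So most of the gap between the groups lay in collection 2, and the groups overlapped in both. Without the 3 wells named above, the ranges of collection 2 did not meet: 1816 to 4307 CPM in wild type and 463.7 to 1588 CPM after deletion. The wells themselves held 3566 (A04), 921.6 (G05) and 1286 CPM (H05), so this gap follows from leaving them out and is no test. They were named by Smarca5 and Gdf9 levels, and the core level ran against oocyte genes in these groups. Without the 3 wells 22 of 40 genes fell and 2 rose, where 28.1% of all genes fell and 32% rose. The sum over 19S genes had medians of 613.5 and 584.1 CPM in collection 1 and of 2759 and 1225 CPM in collection 2 (wild type, deletion).

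Fitted alone, collection 1 gave 8 falls among 30 testable genes (20.2% of all genes fell there) and 4 rises (23.6% of all genes rose), and its median log2 fold change was -0.33. Collection 2 gave 20 falls among 43 genes (15.7% of all genes) and 2 rises (24.1% of all genes), with a median of -1.07. Collection 1 was the shallower, at a median of 429980 counts in wild type and 702651 after deletion, against 650105 and 4686051 in collection 2, and fewer genes passed the count filter. Of the 30 genes tested in both, 15 were negative in both, 9 positive in both and 6 of opposite sign. The 7 that fell in both were Psma3, Psmb1, Psmb7, Psmc3ip, Psmd11, Psmd12 and Psmd14. The share of all genes that fell in both, or kept their sign, was not counted, so these numbers have no background beside them.

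**Figure D2:**
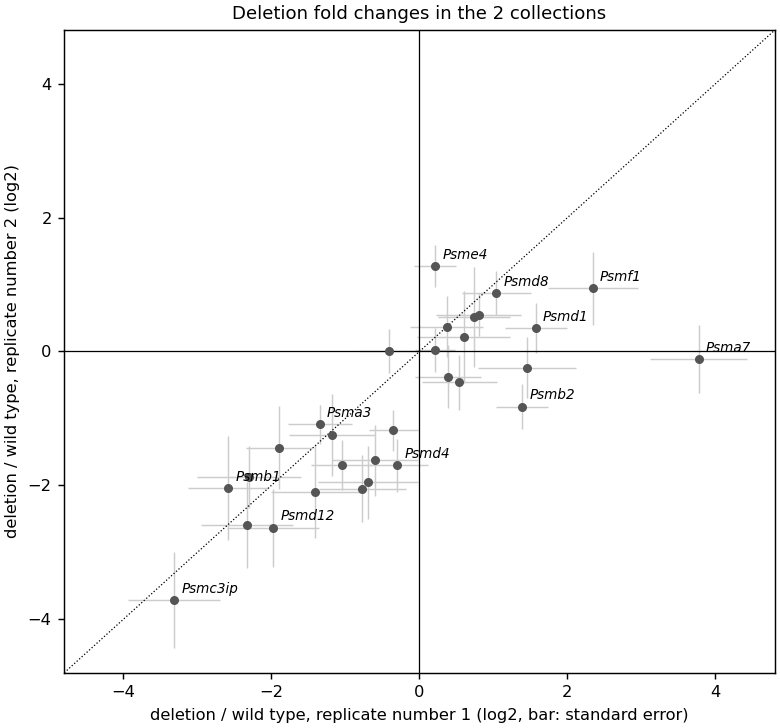
Log2 fold change of the deletion in collection 1 (horizontal) and collection 2 (vertical) for the 30 genes tested in both; bars are standard errors and the dotted line marks equal change. Psmc3ip is lowest in both, while Psma7 (3.77 and -0.11) and Psmb2 (1.39 and -0.82) lie to its right.

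In the alpha ring, which forms the gate of the barrel, 6 of 7 genes fell and the median log2 fold change was -1.63. Psma6 (alpha1) fell most. Its lowest, median and highest level was 0, 129.2 and 500.2 CPM in wild type and 0, 6.18 and 159.2 CPM after deletion, and 1 of 28 deletion libraries lay above the wild-type median (log2 fold change -3.01 ± 0.63 SE, adjusted p = 7.46e-05 by edgeR). In collection 1, though, wild type had a median of 11.45 CPM and the deletion 5.76 CPM, and the gene was too low to test. Psma3 (alpha7) fell by a smaller factor but in both collections, from 264.5 CPM (87.2 to 610.9) to 108.0 CPM (9.97 to 357.5), 2.44-fold lower. Psma1, Psma2, Psma4 and Psma5 fell by 1.67, 1.01, 1.63 and 1.93 on the log2 scale. Psma7 (alpha4) alone of the ring did not pass the test (-0.04 ± 0.51 SE, adjusted p = 0.95).

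Psma7 hid a difference between the collections. In collection 1 the 8 wild-type libraries ran from 0 to 4.21 CPM with a median of 0.967 CPM and lay entirely below the 13 deletion libraries, at 11.7 to 111.7 CPM. In collection 2 wild type had 3.33, 68.8 and 240.4 CPM and the deletion 5.56, 43.7 and 370.1 CPM as lowest, median and highest, and the groups overlapped. The effect of the deletion was lower by 4.04 ± 0.91 SE on the log2 scale in collection 2 than in collection 1 (interaction, edgeR adjusted p = 0.0307). Psmb2 did the same, at -2.33 ± 0.51 SE (adjusted p = 0.0307). Its wild-type median was 38.5 CPM in collection 1 and 194.4 CPM in collection 2, against 108.5 and 76.9 CPM after deletion, so that it rose in the first and fell in the second. These were the 2 of 40 genes with such a difference, where 0.129% of all genes had one in that direction. With libraries of at least 500000 counts alone, none passed by edgeR. There 4 (9.76%) had an unadjusted p under 0.05, against 7.17% of all genes.

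Of the 4 beta genes without a cutting site 2 fell. Psmb1 went from 35.5, 309.4 and 853.3 CPM in wild type to 0, 15.2 and 917.2 CPM, with 1 deletion library above the wild-type median (-2.29 ± 0.61 SE, adjusted p = 0.00129). Psmb4 fell by 1.45 on the log2 scale. Psmb2 and Psmb3 were at -0.42 and 0.16 on the log2 scale and did not pass.

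The 3 cutting subunits did not move together. Psmb5, the chymotrypsin-like site and the main target of proteasome inhibitor drugs, ran from 9.69 over 138.6 to 334.1 CPM in wild type and from 0 over 4.89 to 105.2 CPM after deletion. No deletion library lay above the wild-type median, 6 of 28 were at 0, and the ranges overlapped at their ends. The fold change was -3.80 ± 0.57 SE on the log2 scale, or 13.9-fold lower (edgeR adjusted p = 2.69e-07). Medians were 43.0 and 3.20 CPM in collection 1 and 213.4 and 7.43 CPM in collection 2. In collection 1 alone Psmb5 did not pass the count filter and was not tested. Psmb7, the trypsin-like site, went from 0, 101.2 and 529.6 CPM to 0, 14.1 and 324.7 CPM (-2.14 ± 0.51 SE, adjusted p = 0.000431) and fell in both collections. Psmb6, the caspase-like site, had 14.6, 94.1 and 288.4 CPM in wild type and 19.3, 57.9 and 393.2 CPM after deletion, and the difference was within the spread (-0.19 ± 0.33 SE, adjusted p = 0.639). Exons of Psmb7 overlap Nek6 on the other strand, and how strand was treated in counting is not given in the sources used here, so reads of the pair may not be told apart. Exons of 14 of the 49 genes overlap another gene in this way or on the same strand, Psmb5 (with the microRNA gene Mir686) among them.

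**Figure D3:**
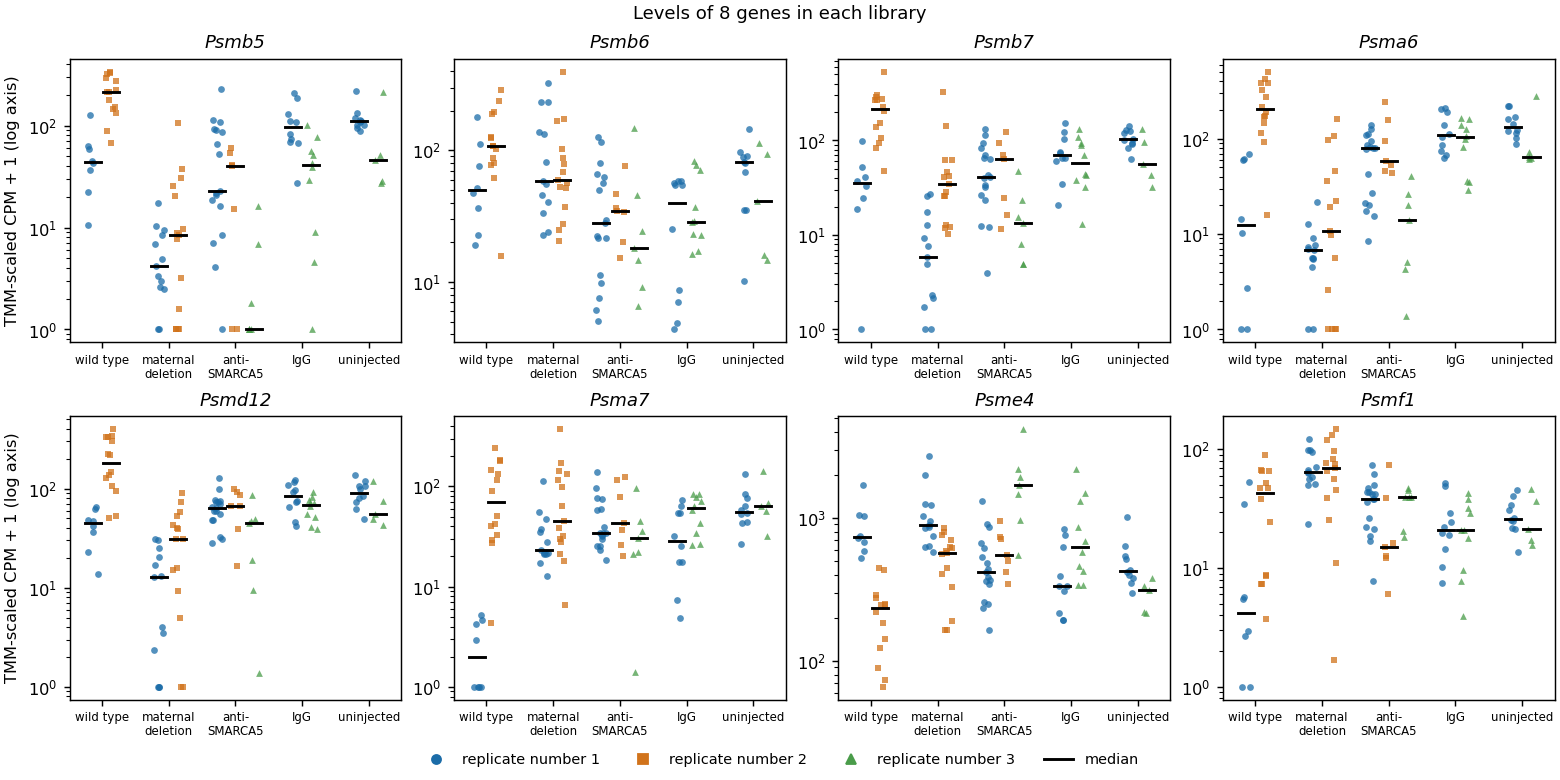
Level of 8 genes in each library (TMM-scaled CPM plus 1, log axis) by group; points are libraries, coloured by replicate number, and bars are medians. Psmb5 falls to a median of 4.89 CPM after deletion, Psma7 is near 0 in wild-type collection 1 alone, and Psme4 is higher in wild-type collection 1 (734.5 CPM) than in collection 2 (231.8 CPM).

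Among the ATPases of the 19S ring, Psmc1 (Rpt2), Psmc2 (Rpt1) and Psmc5 (Rpt6) fell, by 2.17, 1.65 and 1.63 on the log2 scale. Psmc3, Psmc4 and Psmc6 did not pass, at -0.60, -0.93 and 0.27. The fall of Psmc5 did not hold with the collection as a block. Of the 11 other 19S subunits 7 fell: Psmd4, Psmd6, Psmd7, Psmd11, Psmd12, Psmd13 and Psmd14. Psmd12 (Rpn5), a scaffold subunit, went from 12.9, 99.4 and 395.5 CPM to 0, 15.4 and 88.5 CPM (-2.75 ± 0.50 SE, adjusted p = 9.61e-06). Psmd14 (Rpn11), the enzyme that cuts off the ubiquitin chain, went from 19.4, 151.3 and 408.0 CPM to 0, 19.2 and 261.6 CPM (-2.60 ± 0.50 SE, adjusted p = 2.19e-05). No deletion library for Psmd12, and 1 for Psmd14, lay above the wild-type median. The ubiquitin receptor Psmd4 (Rpn10) fell by 1.66 on the log2 scale over both collections, with -0.30 ± 0.42 SE in collection 1 and -1.70 ± 0.40 SE in collection 2. Psmd1 and Psmd2, the largest scaffold subunits, Psmd3 and Psmd8 did not pass, at 0.41, 0.41, -0.17 and 0.69. With the collection as a block, Psmd1 and Psmd8 rose, so that 4 genes rose and 20 fell. In that fit 31.8% of all genes rose and 25.8% fell.

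None of the assembly chaperones tested passed: Psmd5, Psmd9 and Psmd10 of the 19S particle had log2 fold changes of -0.25, 0.63 and 1.43, and Psmg1 and Psmg2 of the 20S core 0.37 and 0.75, with adjusted p of 0.0882 or more. Psme3, the nuclear activator PA28 gamma, had medians of 132.0 CPM (38.5 to 294.2) and 153.5 CPM (40.3 to 400.4), with no difference beyond the spread (0.15 ± 0.23 SE on the log2 scale, adjusted p = 0.594), and its sign turned under other scalings.

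The 2 genes that rose code for an activator and an inhibitor of the core. Psme4 codes for PA200, a nuclear activator known for its part in the breakdown of acetylated histones in the male germ line. It ran from 64.8 over 281.3 to 1693 CPM in wild type and from 162.3 over 664.8 to 2712 CPM after deletion, with 25 of 28 deletion libraries above the wild-type median (0.71 ± 0.30 SE on the log2 scale, edgeR adjusted p = 0.0405). Within collection 1 the medians were 734.5 and 889.5 CPM (0.21 ± 0.29 SE, adjusted p = 0.575), and within collection 2 they were 231.8 and 566.4 CPM (1.28 ± 0.31 SE, adjusted p = 0.00178). Psmf1 codes for PI31, which inhibits the core in the test tube. It ran from 0 over 15.6 to 88.1 CPM in wild type and from 0.676 over 65.4 to 146.7 CPM after deletion, with 26 of 28 libraries above the wild-type median (1.23 ± 0.42 SE, adjusted p = 0.0113), and its rise was the larger in collection 1 (2.34 ± 0.61 SE against 0.94 ± 0.54 SE). When libraries were scaled by total counts alone, which moved the median of all genes from 0.18 to -0.04, neither rise passed (adjusted p = 0.107 and 0.0739) and 22 genes fell, where 30.8% of all genes did. The rise of Psme4 was also lost with libraries of at least 500000 counts, with shallower libraries added and with no filter on low counts.

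Psmc3ip, the recombination factor caught by the name rule, fell almost as far as Psmb5, from 7.31, 174.7 and 481.6 CPM to 0, 6.56 and 197.0 CPM (-3.76 ± 0.56 SE, adjusted p = 2.66e-07). Its exons overlap those of Mlx on the other strand.

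The replacement subunits were low in all 5 groups. Psmb9 was at 0 in all 22 wild-type libraries and above 0 in 7 of 28 deletion libraries, and Psmb8 was at 0 in 21 of 22 and 24 of 28. Psmb10, the third immunoproteasome subunit, had a median of 3.48 CPM in wild type and of 0 after deletion, and of 12.6, 18.9 and 24.0 CPM in anti-SMARCA5, IgG and uninjected embryos. Psma8, known from testis, was at 0 in 17 of 22 wild-type and all 28 deletion libraries, and Psmb11, known from thymus, at 0 in all 22 and in 20 of 28. With no filter on low counts, Psmb8, Psmb9 and Psmb11 were called higher after deletion (log2 fold change 2.65, 5.145 and 5.93) and Psma8 lower (-4.75). These calls rest on few libraries above 0, and the deletion libraries were the deeper. Psme1 and Psme2, the activator pair induced by interferon, had wild-type medians of 0.908 and 3.26 CPM. A level of 0 at these depths allows up to 3 counts, so absence was not shown. Exon length was taken as the merged exons of all annotated transcripts of a gene, so an order by it also depends on the annotation. Per kilobase of exon, the highest medians in uninjected embryos were those of Psmb5 (112 CPM per kb), Psmb2 (99.1), Psma6 (96.0) and Psmd7 (86.4). Psme4, with the highest CPM of all 49 genes (381.7), had 45.5 CPM per kb.

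**Figure D4:**
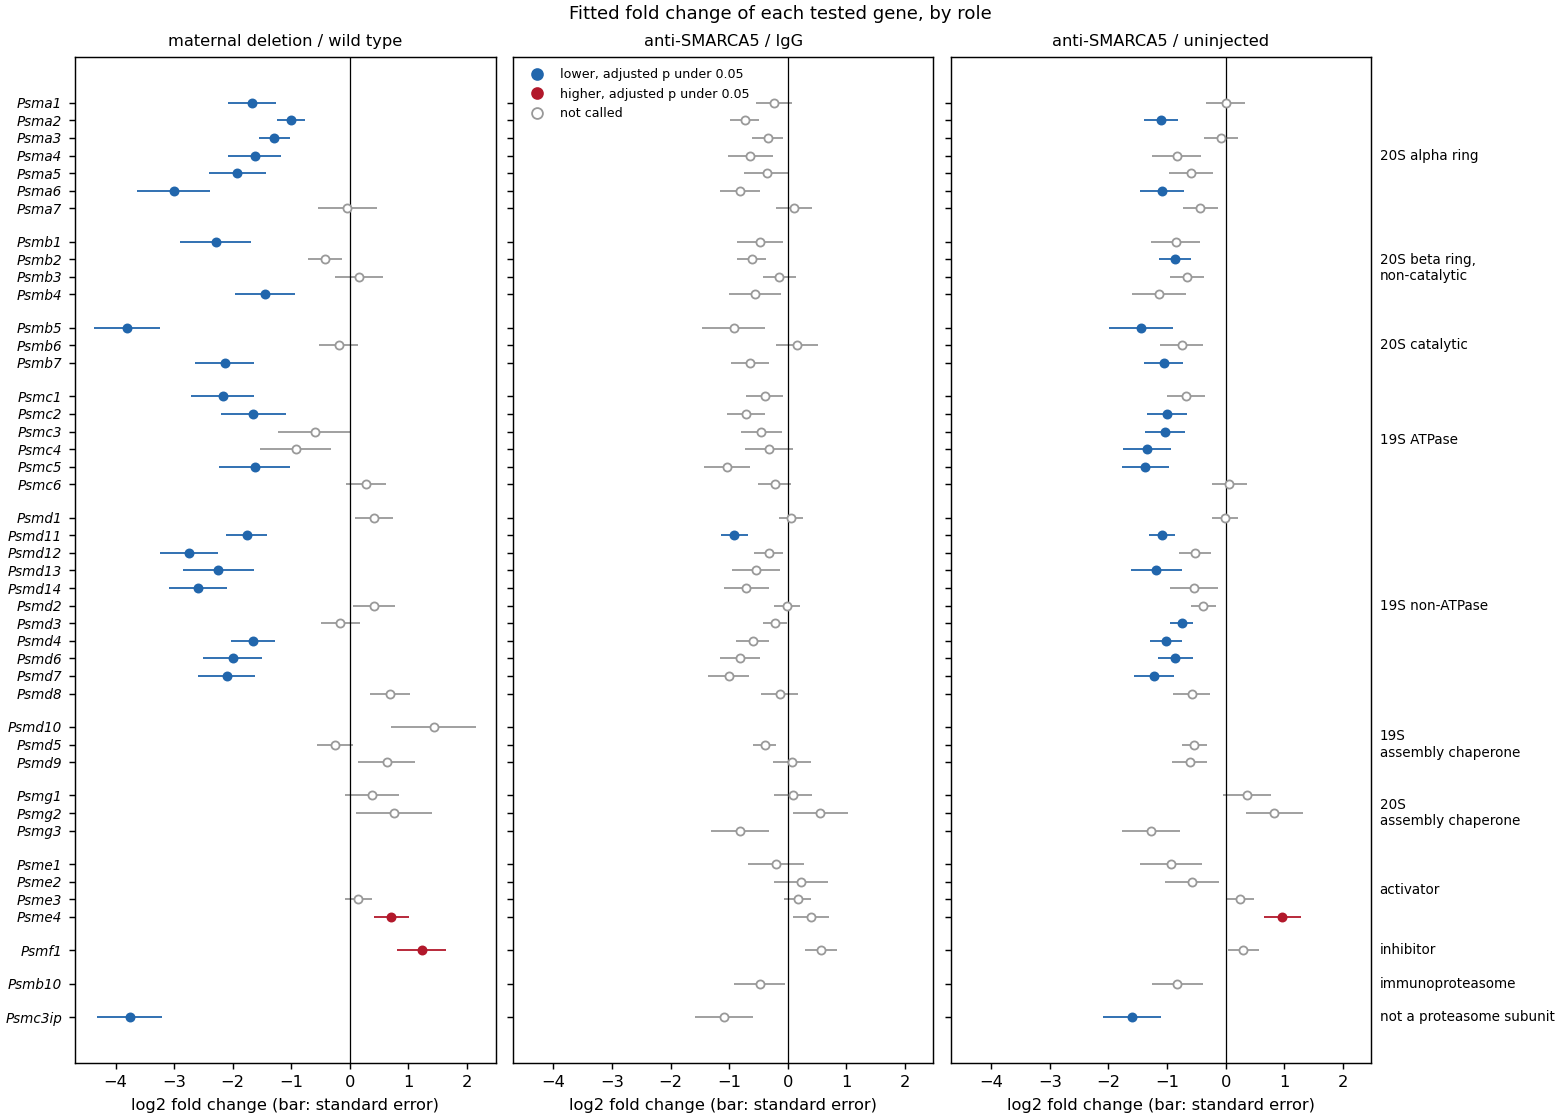
Log2 fold change with its standard error for each tested gene in 3 comparisons, grouped by role; filled points passed an adjusted p of 0.05. In the deletion 21 genes are lower and 2 higher, against IgG only Psmd11 is lower, and against uninjected embryos 16 are lower and Psme4 is higher.

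After TrimAway, fewer proteasome genes passed the test than after deletion. Against IgG, 1 of 43 tested genes fell and none rose, where 1.3% of all 10447 genes fell. No Trim21 RNA was counted in IgG pool 1, so this control differed there from the treated embryos in more than the antibody. At an unadjusted p under 0.05 there were 11 of the 43 (25.6%), close to the 26.4% of all genes, and DESeq2 called 3 lower, where it called 4.22% of all genes lower. The gene was Psmd11 (Rpn6), a scaffold subunit, at 21.5, 64.9 and 156.6 CPM in 31 anti-SMARCA5 libraries and 26.0, 134.1 and 291.7 CPM in 20 IgG libraries. Its log2 fold change was -0.91 ± 0.23 SE (edgeR adjusted p = 0.0277), and 3 of 31 libraries lay above the IgG median. It did not pass with total counts as the scale (-1.04), with all libraries (-0.70), without pool 1 (-0.80), within pool 1 (-1.01 ± 0.28 SE, adjusted p = 0.059) or within pool 3 (-1.09 ± 0.40 SE, adjusted p = 0.0602). Of the 43 genes 33 were negative, with a median of -0.39 where all genes had 0.04. Psmb5 was at -0.92 ± 0.54 SE (adjusted p = 0.258), Psmb7 at -0.65, Psmb6 at 0.16 and Psme4 at 0.39, all short of the threshold.

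With the pool as a block, 14 genes fell against IgG, where 13.6% of all genes fell. They were Psma2, Psma6, Psmb2, Psmb5, Psmb7, Psmc2, Psmc3ip, Psmc5, Psmd5, Psmd6, Psmd7, Psmd11, Psmd13 and Psmd14, and Psmb5 then had -1.83 ± 0.61 SE (adjusted p = 0.0244). Each pool was also fitted alone. No Trim21 RNA was counted in the IgG libraries of pool 1, so antibody and Trim21 cannot be told apart there. Within pool 1, with 17 anti-SMARCA5 and 10 IgG libraries, none fell (0.343% of all genes did) and 6 (14%) had an unadjusted p under 0.05, against 22.8% of all genes. Within pool 3, with 7 and 10, 11 fell (9.54% of all genes) and Psme3 rose. Whether the pools' effects differ was not tested. For Psmb5 the lowest, median and highest level in pool 1 was 0, 21.6 and 226.7 CPM after anti-SMARCA5 and 26.0, 94.7 and 205.2 CPM after IgG. In pool 3 it was 0, 0 and 15.1 CPM against 0, 40.0 and 99.9 CPM, so that all 7 anti-SMARCA5 libraries of pool 3 lay below the IgG median. Anti-SMARCA5 pool 2 had a median of 39.5 CPM and has no IgG library of 100000 counts beside it.

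Against uninjected embryos, 16 of 43 tested genes fell and 1 rose, where 10.4% of all 10750 genes fell and 17.5% rose. The median was -0.75 for the 43 genes and 0.13 for all. This comparison shares its anti-SMARCA5 libraries with the one before, so the results are not separate evidence. The 19S particle gave most of the falls: 4 of 6 ATPases (Psmc2, Psmc3, Psmc4, Psmc5) and 6 of 11 other subunits (Psmd3, Psmd4, Psmd6, Psmd7, Psmd11, Psmd13). The core gave 5 of 14 (Psma2, Psma6, Psmb2, Psmb5, Psmb7), and Psmc3ip was the other. Psmc3ip, Psmb5, Psmc5, Psmc4 and Psmd7 fell most, with log2 fold changes of -1.596, -1.44, -1.37, -1.34 and -1.23. Psmb5 ran from 0 over 17.5 to 226.7 CPM in anti-SMARCA5 and from 26.3 over 100.4 to 217.0 CPM in uninjected embryos, and 3 of 31 libraries lay above the uninjected median (SE 0.54, adjusted p = 0.0423). That fall was close to the threshold and did not pass by DESeq2, nor with any 1 pool left out, but passed with the pool as a block. Psmb7 went from 95.8 CPM (31.3 to 141.8) to 33.2 CPM (2.93 to 132.5), and Psmd11 from 153.7 CPM (50.5 to 309.1) to 64.9 CPM. Psmb6 did not pass (-0.75 ± 0.37 SE, adjusted p = 0.11).

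Psme4 rose here too, from 215.3, 381.7 and 1015 CPM to 164.6, 545.6 and 4159 CPM (0.97 on the log2 scale), and without pool 3 the value was 0.12 and did not pass. In pool 3 the anti-SMARCA5 median was 1709 CPM (547.4 to 4159) against 314.6 CPM in uninjected embryos (215.3 to 379.8) and 628.6 CPM in IgG embryos (338.3 to 2203). The anti-SMARCA5 and uninjected libraries of that pool did not overlap, and the log2 fold change was 2.61 ± 0.44 SE (adjusted p = 0.00219). In pool 1 the medians were 415.8 and 425.4 CPM and the fold change 0.07 ± 0.28 SE (adjusted p = 0.876). The rise was lost with the pool as a block and with total counts as the scale, where the median of all genes moved from 0.13 to -0.29. Within pool 1 alone 8 genes fell (4.5% of all genes), and within pool 3 alone 15 fell (11.5%). Without pool 1, which leaves anti-SMARCA5 pools 2 and 3 against 5 uninjected libraries, none of 44 passed by edgeR and 0% of all genes fell; 12 (27.3%) had an unadjusted p under 0.05, against 21.4% of all genes. With the pool as a block 21 fell and none rose, where 14.6% of all genes fell and 17.2% rose.

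IgG and uninjected embryos did not differ in any of the 43 tested genes by edgeR, nor did any other gene that passed the count filter (0% of 9915; 1440 had an unadjusted p under 0.05, and DESeq2 called 261 genes, none of them among the 43). With no filter on low counts, edgeR called 881 of 20956 genes, Psmc4 among them (-1.02 ± 0.29 SE, adjusted p = 0.0406). The log2 fold changes of the 43 were mostly small and negative, 35 of 43, with a median of -0.31. All genes had a median of 0.03, and 52.4% of them were positive. At an unadjusted p under 0.05 by edgeR there were 16.3% of the 43 and 14.5% of all genes. With total counts as the scale these shares were 37.2% and 11.9%. Psmb5 was at -0.52, Psmb6 at -0.89, Psmb7 at -0.40 and Psme4 at 0.58.

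The fall after deletion was larger than after TrimAway against IgG for 8 of 44 genes, by a contrast of all 4 groups in 1 fit, where 8.73% of all 12035 genes differed in that direction. They were Psmb5 (-2.95 ± 0.81 SE on the log2 scale, edgeR adjusted p = 0.00601), Psmc3ip, Psmd12, Psma6, Psmd14, Psmc1, Psma1 and Psma3. With replicate numbers as a block, Psmd12 alone passed (-1.99 ± 0.52 SE, adjusted p = 0.00572, where 3.68% of all genes did). Experiment, lane and collection cannot be told apart in this contrast. Nor can antibody and Trim21 for IgG pool 1, where no Trim21 RNA was counted.

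Within a group and replicate number, the core and the 19S particle went up and down together from library to library. Over the 10 sets of at least 6 libraries, Pearson's r of the 2 summed levels, on log2(CPM + 1), lay between 0.757 (wild-type collection 2, n = 14) and 0.935 (IgG pool 3, n = 10). These points share each library's scale and depth. The summed core level against the sum of 7 oocyte genes (Gdf9, Bmp15, Zp2, Zp3, Nlrp5, Oosp1 and Oog1) had r between -0.898 and -0.328 in the same sets, and r against log depth was between -0.695 and 0.574.

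**Figure D5:**
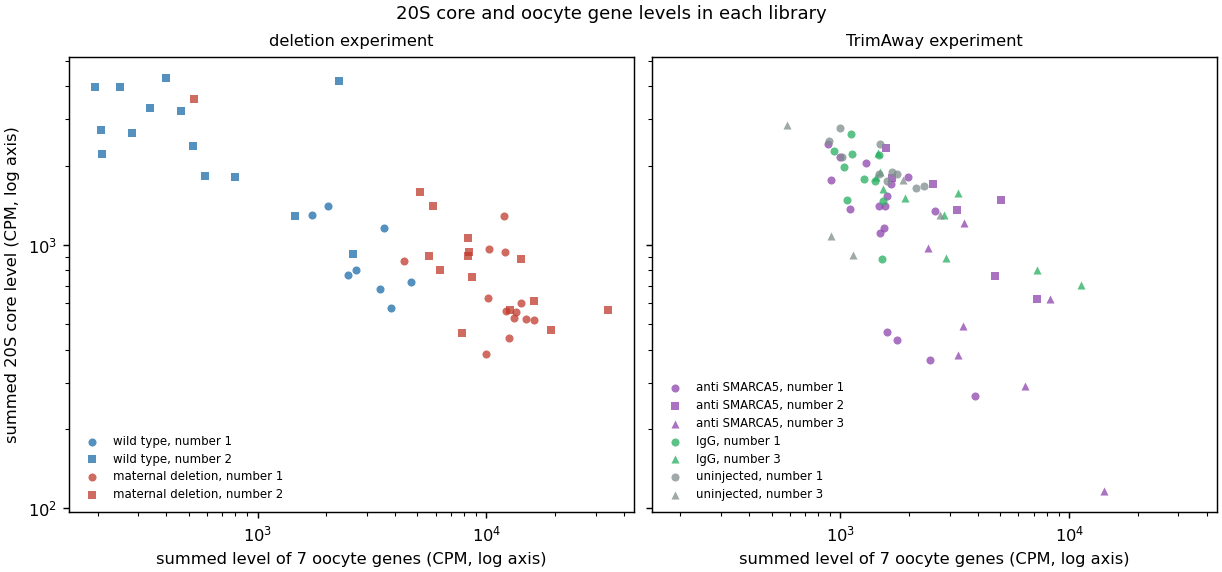
Summed 20S core level against the summed level of 7 oocyte genes in each library, both in TMM-scaled CPM on log axes, for the deletion experiment (left) and the TrimAway experiment (right); colour gives the group and shape the replicate number. Within each group and replicate number of at least 6 libraries, core RNA ran against oocyte RNA, weakly in deletion collection 1 (r = -0.328). Across groups this did not always hold. Deletion collection 2 had higher medians than wild-type collection 1 for both oocyte genes (8330 against 3065 CPM) and core (880.3 against 786.2 CPM). By median oocyte level, wild-type collection 1 lies between wild-type collection 2 and the deletion collections.

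The oocyte genes moved with the groups as well. Of the 7 measured, 6 rose after deletion and none fell, and their summed level ran from 195.0 over 1132 to 4667 CPM in wild type and from 525.1 over 11130 to 34040 CPM after deletion. Its median was 3065 CPM in wild-type collection 1 and 430.1 CPM in collection 2. In anti-SMARCA5 embryos the median was 1563, 3243 and 3483 CPM in pools 1, 2 and 3. In pools 1 and 3 it was 1201 and 2374 CPM in IgG embryos and 1542 and 1138 CPM in uninjected embryos. The highest IgG library of pool 3 had 11230 CPM. Of 5 tested genes of the 2-cell stage, 3 fell after deletion (Obox3, Tdpoz4 and Zfp352). The part of leftover oocyte RNA, of embryo timing and of depth in the levels above was not tested. In RNA scaled to the library, less RNA of a gene per embryo and more RNA of other genes cannot be told apart. Markers of cumulus, sperm and immune cells were too low to test after deletion: the summed medians were 0, 0 and 0 CPM in wild type and 2.49, 1.96 and 2.73 CPM after deletion, over 7, 4 and 5 genes in the order given. In collection 2 alone the immune sum had a median of 0.145 CPM (0 to 6.18) in wild type and 42.9 CPM (0 to 184.0) after deletion, and in collection 1 both medians were 0. The part of such RNA in the results was not tested. In the TrimAway comparisons at most 1 cumulus and 2 immune genes could be tested and none passed. The immune sum had medians of 33.6, 13.6 and 13.1 CPM in anti-SMARCA5, IgG and uninjected embryos there. Its highest values were 1173, 159.6 and 1308 CPM in the same order. There, against uninjected embryos, 4 oocyte genes rose and 1 fell, and the 2-cell genes Zscan4d and Zscan4f rose. Against IgG no oocyte or 2-cell gene passed.

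Other genes of the ubiquitin pathway were taken from a list. Of 29 listed genes 28 were in the tables and tested. After deletion 5 rose (17.9%, against 30.3% of all genes) and 7 fell (25%, against 26.4%), with a median of -0.02 on the log2 scale. Among the falls were Adrm1 (Rpn13), a ubiquitin receptor of the 19S particle (-2.54 ± 0.49 SE), and Rps27a, a ubiquitin precursor that also codes for a ribosomal protein (-1.89 ± 0.49 SE). The largest rises were Ubqln1, a shuttle that brings tagged proteins to the proteasome (1.32 ± 0.27 SE), Akirin2, which helps to bring proteasomes into the nucleus (0.98 ± 0.33 SE), and AI314180, the proteasome adaptor ECPAS (0.86 ± 0.32 SE). Against uninjected embryos 2 of the 28 rose after TrimAway (7.14%, against 17.5% of all genes) and 5 fell (17.9%, against 10.4%). Among those that fell were Shfm1, which codes for a small 19S subunit (-1.31 ± 0.35 SE), and Adrm1 (-1.26 ± 0.44 SE), and those that rose were Rad23b (1.06 ± 0.31 SE) and AI314180 (0.91 ± 0.21 SE). Against IgG, and between IgG and uninjected embryos, none of the 28 passed.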

How the data were processed

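The deposited values are whole read counts per gene and library, in 2 tables, 1 per experiment. Per the submitters' processing notes, reads were trimmed with Trim Galore 0.6.5 and cutadapt 2.3 and aligned with HISAT2 2.1.0 to GRCm38. Strand, multi-mapping and duplicate treatment are not given in the sources used here. Lines of 57 gene IDs that occurred more than once were summed. Of 135 embryo libraries, 19 with fewer than 100000 counts were left out, 116 kept.

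From the counts, each comparison was fitted over all genes with edgeR 4.0.16 (R 4.3.3, limma 3.58.1; TMM scaling, filterByExpr, robust quasi-likelihood F test), with Benjamini-Hochberg adjustment and a threshold of 0.05. SE is the log2 fold change divided by the root of F. The fits of deletion against wild type and of anti-SMARCA5 against IgG were tried on simulated counts. Those libraries were independent, with the same spread for every gene and no collection or pool effect. The trial therefore cannot show how the fits behave under such effects. DESeq2 1.42.0, total-count scaling, other depth and count filters, the replicate number as a block and leaving out each number were alternatives; fits within pools and without doubted wells are among them. The series' design text describes replicates as pools of embryos, and in the deletion experiment each number is also 1 lane; whether controls share a pool with the treated embryos of the same number is not stated, so the block is given as an alternative. Same-numbered libraries deviated together with a correlation of 0.492 (deletion), 0.553 (anti-SMARCA5 and IgG), 0.078 (anti-SMARCA5 and uninjected) and 0.408 (IgG and uninjected). Exon lengths are from GENCODE M21.

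Values are given in full for the cutting, replacement and activator genes and, per comparison, for the 5 largest rises and falls among genes that passed; of the ubiquitin pathway list, for the 3 largest, of which 1 gene is not reported here. Psma3, Psma7, Psmb1, Psmb2 and Psmd4 were added after their values were seen. The members and lists were chosen with earlier results of these data known.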

Additional observations from a re-analysis of the deposited data

Results flagged for a closer look

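In 10 cases the effect on a gene differed between groups by a test of the difference itself (edgeR quasi-likelihood, adjusted over all genes). The deletion effect was lower in collection 2 than in collection 1 for Psma7 (-4.036 on the log2 scale) and Psmb2 (-2.326). The deletion effect was lower than that of TrimAway against IgG for Psmb5 (-2.948), Psmc3ip (-2.762), Psmd12 (-2.481), Psma6 (-2.247), Psmd14 (-1.966), Psmc1 (-1.823), Psma1 (-1.491) and Psma3 (-1.003). With the replicate block, Psmd12 alone of these 8 passed (-1.99), with Psmb5 at an adjusted p of 0.121 and Psmc3ip at 0.142 by edgeR. Neither difference between collections passed with libraries of at least 500000 counts.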

How the results depend on the processing

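Depth and the pools limit these results. Percentages in parentheses are the shares of all tested genes that moved the same way. After deletion, 21 genes fell (26.4%) and 2 rose (30.3%). The number that rose was 1 with all libraries above 0 counts (27.4%) and 1 with at least 500000 counts (22.1%). It was 4 with no filter on low counts (31.8%), 4 with the replicate block (31.8%) and 0 with total counts as the scale (25.8%). Leaving out a collection gave 2 to 4 rises (24.1% and 23.6%) and 8 to 20 falls (20.2% and 15.7%). Fewer genes could be tested without collection 2.

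Against IgG, 1 gene fell (1.3%). It was 14 with the replicate block (13.6%), 3 with DESeq2 (4.22%) and 3 with no filter (3.16%). It was 0 with all libraries (1.67%), 0 with total counts (0.45%) and 0 within pool 1 (0.343%). Within pool 3 it was 11 (9.54%), and 1 rose (6.97%). Leaving out a pool gave 0 to 1 (0% to 2.51%). Against uninjected embryos 16 fell (10.4%) and 1 rose (17.5%). The rise was lost (0) with the replicate block (17.2%) and with total counts (3.8%). Within pool 3, 2 rose (15.1%), and within pool 1, 8 fell (4.5%). Leaving out a pool gave 0 to 1 rises (0.00948% to 18.3%) and 0 to 15 falls (0% to 10.1%). Between IgG and uninjected embryos 1 fell with no filter (0.845%). Of the contrasts of effects, 0 genes differed between collections with at least 500000 counts, where 1 of all 9734 did. Between deletion and TrimAway 4 were lower with that filter (5.38%), and 1 with the replicate block (3.68%). Fits within pools were chosen after seeing the data. The cause was not tested.

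Signs turned for genes that did not pass. Psme3 after deletion was -0.064 with all libraries, -0.015 with at least 500000 counts, -0.007 with no filter and -0.097 with total counts, and Psmb6 was -0.463 to 0.54 with a collection left out. Against IgG, within pool 1 Psmb10 was 0.385, Psme1 0.44 and Psme3 -0.01, within pool 3 Psmb6 was -0.084 and Psme2 -1.405, with total counts Psme3 was -0.031, and with the block Psme2 was -0.16. Against uninjected embryos Psme2 was 0.063 and Psme3 -0.252 within pool 1, and Psme3 -0.235 with total counts. Between IgG and uninjected embryos Psme3 was -0.204 with total counts, and Psme3 was -0.236 and Psme4 -0.247 within pool 1. With a pool left out, the ranges against IgG were -1.337 to 0.354 (Psmb10), -0.084 to 0.36 (Psmb6), -0.224 to 0.374 (Psme1), -0.365 to 0.504 (Psme2) and -0.005 to 0.39 (Psme3). For Psme3 the range was -0.261 to 0.838 against uninjected embryos and -0.236 to 0.456 between IgG and uninjected embryos, where Psme4 had -0.247 to 1.537.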
